A study of Cricetiscus sungorus with 24 samples.

Results

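Thyroid hormone reaches the kidney mainly as the prohormone thyroxine, and the deiodinases, a family of selenoproteins, decide how much of it becomes the active hormone triiodothyronine. DIO1 and DIO2 make triiodothyronine, and DIO3 inactivates both hormones. DIO1 is known as the enzyme of liver and kidney, where it is found in the proximal tubule, whereas the seasonal switch between DIO2 and DIO3 described in photoperiodic mammals takes place in the hypothalamus. Inside the cell the hormone binds the nuclear receptors THRA and THRB, which repress genes with the corepressor NCOR1 while no hormone is bound. The 9 genes described here are these 3 deiodinases (Dio1, Dio2, Dio3), the receptors Thra and Thrb, the corepressor Ncor1, the carriers transthyretin (Ttr) and crystallin mu (Crym), and the hormone-responsive gene Thrsp. They were selected by gene symbol, and each was represented by its transcript with the most counts.

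Kidney RNA of 24 adult Djungarian hamsters was read as cDNA on a nanopore sequencer, 1 library per animal, and the reads were counted under the names of the mouse transcripts they aligned to. Experiment 1 held 12 males, 4 in long photoperiod (LP, with 16 h light each day), 4 after 12 weeks (SP12wk) and 4 after 28 weeks (SP28wk) in short photoperiod (SP, 8 h of light). It asked how the kidney changes through a photoinduced seasonal rhythm. Experiment 2 held 12 females, all exposed to SP for 8 weeks, of which 6 received vehicle, a mixture of dimethyl sulfoxide and saline (SAL), and 6 received 18 µg ovine prolactin (PRL) in the same vehicle by intraperitoneal injection daily for 3 days. It asked whether prolactin is sufficient to alter the kidney in SP. Each experiment was run on 1 flow cell, so that sex, flow cell and the photoperiod history of the animals cannot be told apart between the experiments, and levels are set side by side without a test.

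Of the 9 genes, 7 had a row among the 15842 genes of experiment 2 (Dio1, Thra, Thrb, Ttr, Crym, Thrsp and Ncor1) and 5 had one among the 9681 genes of experiment 1 (Thra, Thrb, Ttr, Crym and Ncor1). No values were analysed here for Dio2 and Dio3 in either experiment, or for Dio1 and Thrsp in experiment 1. Depth set how much could be seen. With 1 transcript per gene, the libraries of experiment 2 held 174053 to 756523 counts, so that 1 count was worth 1.32 to 5.75 CPM (counts scaled to a library total of 1e6). Libraries of experiment 1 held 15687 to 57585 counts, and 1 count was worth 17.4 to 63.7 CPM. A count of 0 allowed a level of up to 3.97 to 17.2 CPM in experiment 2 and up to 52.1 to 191 CPM in experiment 1, taking 3 counts as the limit and counting error only. Markers of the proximal tubule were found in every library, with summed levels of 736 to 1983 CPM in experiment 2 and 1458 to 2553 CPM in experiment 1, although Cubn was at 0 in both. All 5 genes with a row in experiment 1 and all 7 in experiment 2 had counts in enough libraries to be tested.

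In experiment 2, none of the 7 genes differed between SAL and PRL after adjustment over the 10696 genes tested. Thrsp had the largest difference among them, with a fitted level in PRL 2.29-fold that of SAL, and Thrb was the next, at 0.605-fold. Ttr, Crym, Thra, Ncor1 and Dio1 lay between 0.716-fold and 1.08-fold. With edgeR's quasi-likelihood test, 0 of 7 genes passed an adjusted p of 0.05, beside 0% of all genes tested (0 of 10696). At an unadjusted p under 0.05, 1 of 7 passed (Thrsp), beside 4.88% of all genes (522 of 10696), and a single gene is no result about the group. DESeq2 also called 0 of 7 after adjustment and 1 of 7 at an unadjusted p under 0.05 (Thrsp), and an exact permutation test of the mean CPM called 1 of 7 before adjustment (Thrb). The median log2 fold change of the 7 genes was -0.12, beside 0.03 for all genes. In whole kidney, fewer cells of a type and less RNA per cell cannot be told apart, here and in all comparisons that follow.

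**Figure D1:**
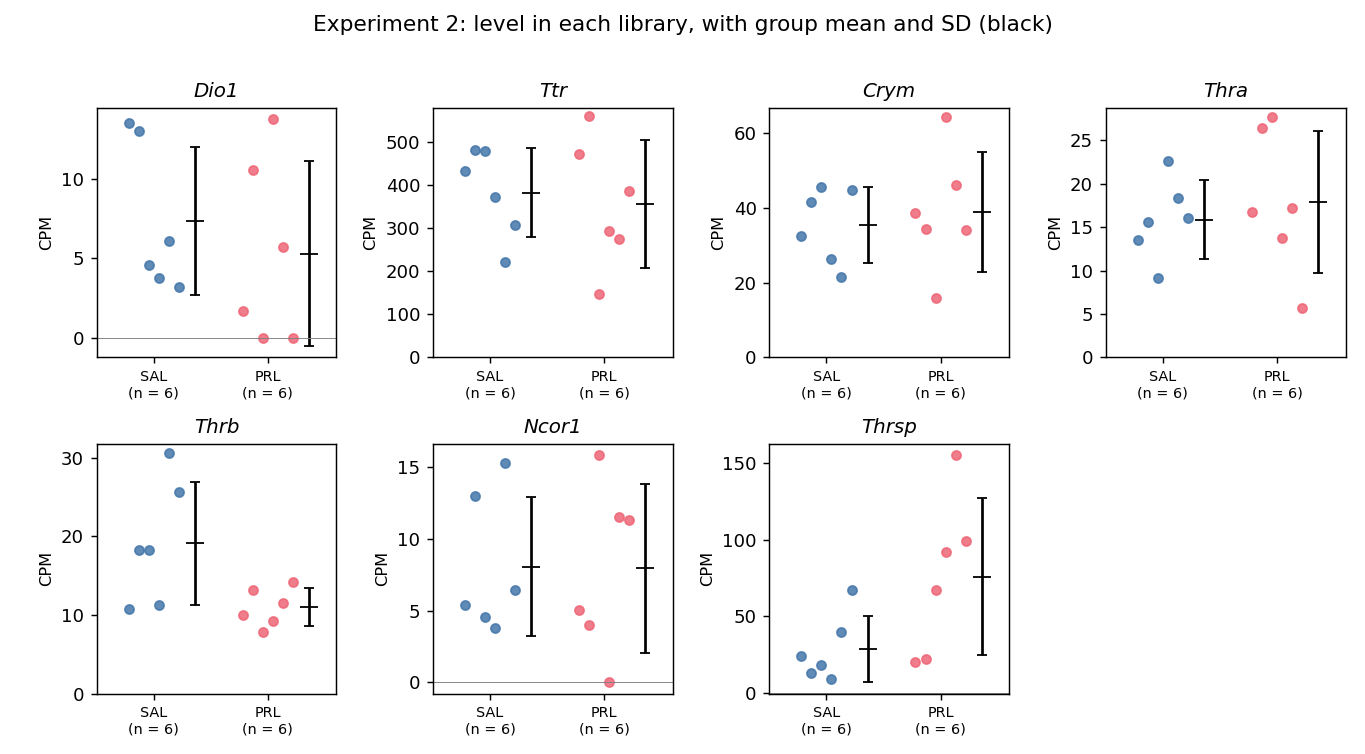
Level of the 7 genes with a row in experiment 2, in CPM (vertical axis, from 0, different scale in each panel), in the 6 SAL (blue) and 6 PRL (red) libraries, in the order of their replicate number, with the group mean and SD in black. Thrsp reached 155 CPM in PRL and 67.2 CPM in SAL with overlapping groups, the PRL libraries of Thrb sat at or below 14.2 CPM, and the groups of the other genes covered each other widely.

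Dio1, the deiodinase of the kidney, rested on few counts. Its row (NM_007860.4, the only transcript of the gene listed) held 29 counts in the whole of experiment 2. In SAL it was found in 6 of 6 libraries, at 3.20 CPM at the lowest, a median of 5.34 CPM and 13.5 CPM at the highest, which came from 1 to 5 counts per library. In PRL it was found in 4 of 6 libraries with 1 to 8 counts, with a median of 3.71 CPM and a highest level of 13.8 CPM, and PRL replicates 3 and 6 were at 0, which allows up to 11.9 and 8.51 CPM. The groups overlapped over nearly their whole range. The means were 7.36 ± 4.68 CPM in SAL and 5.30 ± 5.82 CPM in PRL (SD, n = 6 each), a log2 fold change of -0.48 with a 95% confidence interval from -1.75 to 0.78 (edgeR quasi-likelihood test, adjusted p = 0.998). At this depth neither a level of 0.298-fold nor one of 1.72-fold of SAL could be told from no change.

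Among the carriers, Ttr was measured with the most counts. Transthyretin is known as a plasma carrier of thyroxine and of retinol-binding protein, made by the liver and by the choroid plexus of the brain. Its row (NM_013697.5) held 1806 counts in experiment 2, with counts in 12 of 12 libraries. SAL libraries spanned 220 CPM to 481 CPM with a median of 402 CPM, and PRL libraries 146 CPM to 559 CPM with a median of 340 CPM. The highest and the lowest library were both in PRL, and the SAL range lay wholly within the PRL range. Means were 382 ± 104 CPM and 356 ± 148 CPM (SD, n = 6 each), with a log2 fold change of -0.12 (95% confidence interval -0.61 to 0.38, adjusted p = 0.998). A change of Ttr beyond 0.654-fold or 1.30-fold thus lay outside this interval, the narrowest among the members.

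Markers of the liver and the choroid plexus, organs known to make transthyretin, were present in part in the same libraries. Of 11 hepatocyte markers, 8 had a row in experiment 2, and Apoa1, Fgg and Tat were at 0. Alb, which encodes albumin, the most abundant plasma protein of the liver, had 3 counts in all 12 libraries together. Apoa2 alone made up nearly all of the summed hepatocyte level, with 402 ± 66.6 CPM in SAL and 379 ± 78.0 CPM in PRL. The sums ran from 300 to 476 CPM in SAL and from 283 to 469 CPM in PRL. Of 6 choroid plexus markers, Clic6 and Otx2 were at 0, and most of the summed level, 595 to 878 CPM in SAL and 581 to 969 CPM in PRL, came from Folr1 (604 ± 101 CPM in SAL, 560 ± 156 CPM in PRL), which the kidney is known to express as well. Enpp2 was at 111 ± 31.2 and 95.8 ± 32.6 CPM and Kl, also a known kidney gene, at 92.9 ± 24.8 and 79.9 ± 20.3 CPM. In experiment 1, Alb, Apoa1, Fgg, Tat, Clic6 and Otx2 were at 0 in all 12 libraries, whereas Apoa2 held 38 counts, Fgb 3, Folr1 159, Enpp2 33 and Kl 24. The part of liver or choroid plexus RNA in the level of Ttr was not tested.

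The transcripts whose log2 CPM followed Ttr most closely over the 12 libraries of experiment 2 were Fth1 (Pearson r = 0.97), Nat8f1 (r = 0.93), Gsta1 (r = 0.93), Apoa2 (r = 0.93) and Cox8a (r = 0.93). They were the first 5 of the 3212 other tested genes with a mean of at least 10 counts per library, of which 69 (2.15%) had an r over 0.8 and for which the median r was 0.13. These libraries share a flow cell and differ in depth, and the r of Ttr with the log2 total of the library was itself 0.65. The values describe these 12 libraries only.

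Crym encodes crystallin mu, which binds triiodothyronine in the cytosol. Its single listed transcript (NM_016669.2) held 160 counts in experiment 2. SAL libraries had 21.4 CPM to 45.7 CPM with a median of 37.0 CPM, and PRL libraries 15.8 CPM to 64.4 CPM with a median of 36.4 CPM. The highest and the lowest library were again both in PRL. Means of 35.4 ± 10.2 CPM and 38.8 ± 16.0 CPM gave a log2 fold change of 0.07 (95% confidence interval -0.53 to 0.67, adjusted p = 0.998).

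The receptors and the corepressor rested on fewer counts than the carriers. Thra (NM_001313983.1, 81 counts) spanned 9.13 CPM to 22.6 CPM in SAL, median 15.8 CPM, and 5.67 CPM to 27.7 CPM in PRL, median 17.0 CPM. Both its extremes were in PRL, and the log2 fold change was 0.12 (95% confidence interval -0.64 to 0.87, adjusted p = 0.998). The gene Nr1d1, a clock repressor transcribed from the opposite strand, overlaps the end of Thra, and its level was 12.4 ± 5.78 CPM in SAL and 16.6 ± 9.28 CPM in PRL (SD, n = 6 each). The sources used here do not say how strand entered the counting, so that reads of the overlapping ends may not be told apart.

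Thrb had the most negative fitted log2 fold change of the members in PRL against SAL. Its transcript NM_001113417.1 held 66 counts, and 18 of the 21 transcripts listed for Thrb in experiment 2 carried the same counts, so that the reads do not separate its isoforms. In SAL it ranged from 10.8 CPM to 30.6 CPM with a median of 18.2 CPM, and in PRL from 7.91 CPM to 14.2 CPM with a median of 10.8 CPM. The 4 highest libraries were all in SAL, and the other 2 SAL libraries, at 10.8 and 11.3 CPM, lay within the PRL range. Means were 19.1 ± 7.82 CPM in SAL and 11.01 ± 2.41 CPM in PRL (SD, n = 6 each). The log2 fold change was -0.73 (SE 0.39, 95% confidence interval -1.52 to 0.07), with an adjusted p of 0.998 in edgeR. The exact two-sided permutation test of the mean CPM gave p = 0.0303 before adjustment.

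Ncor1 encodes a corepressor that recruits histone deacetylase to unliganded receptors. Its transcript NM_001252313.1 held 33 counts, which were listed on 13 of 52 transcripts of the gene, and the sum over all 52 was 1676. SAL libraries had 3.76 CPM to 15.3 CPM, median 5.90 CPM, and PRL libraries 0 to 15.8 CPM, median 8.18 CPM, with PRL replicate 4 at 0. The means, 8.07 ± 4.84 CPM and 7.94 ± 5.89 CPM, were nearly equal, and the 95% confidence interval of the log2 fold change ran from -1.34 to 0.90.

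**Figure D2:**
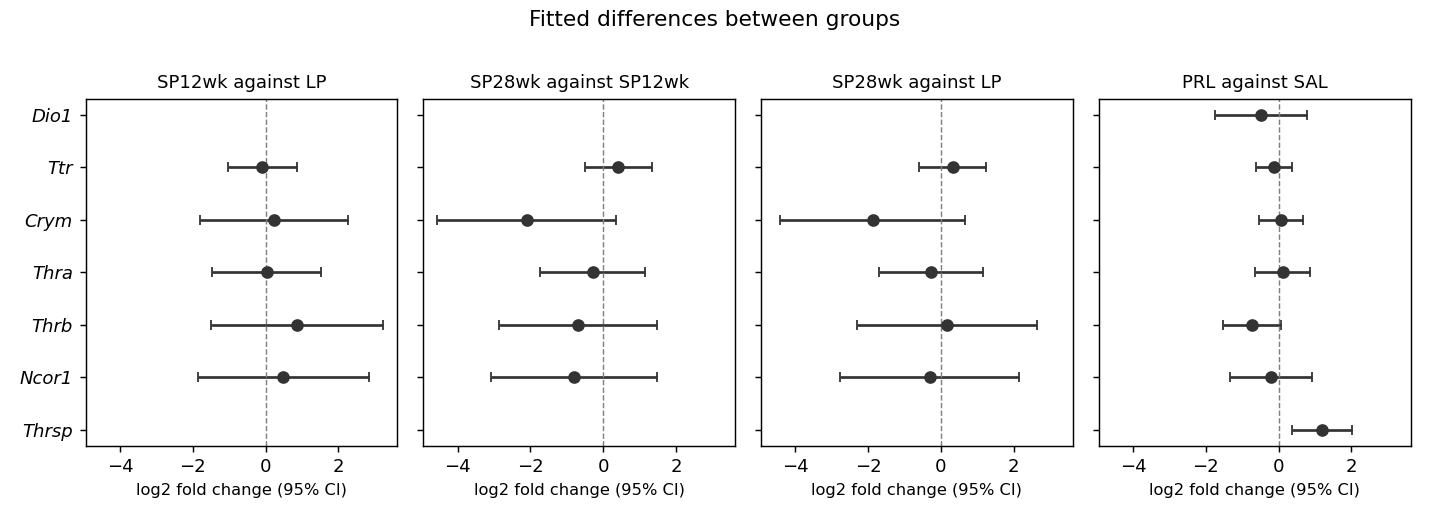
Log2 fold changes from edgeR (points) with 95% confidence intervals (bars) for the members tested, in 3 comparisons of experiment 1 and in PRL against SAL (horizontal axis, the same in all panels). Every interval reaches past 0 except that of Thrsp in PRL against SAL (0.37 to 2.02, not adjusted for the number of genes), and intervals in experiment 1 are wider than in experiment 2 for each gene tested in both.

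Thrsp (thyroid hormone responsive, also called Spot 14) is known to be induced by triiodothyronine and to promote fatty acid synthesis in liver and adipose tissue. Its single listed transcript (NM_009381.3) held 57 counts in SAL and 128 in PRL. SAL libraries had 9.40 CPM to 67.2 CPM, median 21.3 CPM, and PRL libraries 20.1 CPM to 155 CPM, median 79.6 CPM. The 3 highest libraries were in PRL, at 92.0, 99.3 and 155 CPM, and the 3 lowest were in SAL, at 9.40, 13.01 and 18.3 CPM. PRL replicates 1 and 2, at 20.1 and 22.5 CPM, lay among the SAL libraries, and SAL replicate 6, at 67.2 CPM, lay among the PRL libraries.

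The means of Thrsp were 28.7 ± 21.7 CPM in SAL and 76.0 ± 51.2 CPM in PRL (SD, n = 6 each). The fitted log2 fold change was 1.19 (SE 0.41, 95% confidence interval 0.37 to 2.02), with an adjusted p of 0.519 over 10696 genes in edgeR. DESeq2 gave 1.28, with an adjusted p of 0.999, and the exact two-sided permutation test gave p = 0.0584 for the difference in mean CPM. Over the alternatives fitted with edgeR or DESeq2 the log2 fold change stayed between 0.94 and 1.65 and the adjusted p between 0.0210 and 0.999. Thrsp passed the threshold with no filter on low counts (adjusted p = 0.0263) and with a replicate block (adjusted p = 0.0210), and no other alternative called it.

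The summed level of 8 adipocyte markers was higher in PRL than in SAL in its median, with overlapping groups, and no single marker passed the test after adjustment. The sum of the 8 markers, all of which had counts in both groups, ran from 79.0 to 303 CPM in SAL (median 117 CPM) and from 149 to 391 CPM in PRL (median 236 CPM). Thrsp was highest in PRL replicate 5, where the sum was 391 CPM, and lowest in SAL replicate 4, where it was 79.0 CPM. PRL replicates 1 and 2, with the lowest Thrsp of the PRL group, also had the lowest sums of that group, at 167 and 149 CPM. SAL replicates 5 and 6, with the highest Thrsp of the SAL group, had the highest sums of theirs, at 303 and 234 CPM. Other libraries broke this order: PRL replicate 4 had 92.0 CPM of Thrsp at a sum of 179 CPM and the lowest Cidea of the 12 libraries (9.20 CPM), and SAL replicate 5 had 39.8 CPM of Thrsp at a sum of 303 CPM. With edgeR 0 of 7 markers tested passed after adjustment, and the lowest adjusted p was 0.712 (Cfd, the secreted protease adipsin). Fabp4, which encodes the fatty acid binding protein of adipocytes and endothelium, made up the largest share, with 102 ± 76.8 CPM in SAL and 153 ± 63.1 CPM in PRL. Adipoq, the hormone adiponectin, had 9 counts in SAL and 16 in PRL, and Ucp1, the uncoupling protein of brown fat, 8 and 28. Lep, the hormone leptin, had 5 counts in SAL and 4 in PRL. Depth differed as well, since PRL replicates 1 and 2 were the deepest libraries, with 597058 and 756523 counts, and PRL replicate 5 was the shallowest, with 174053. The part of adipose tissue or of depth in the difference of Thrsp was not tested.

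**Figure D3:**
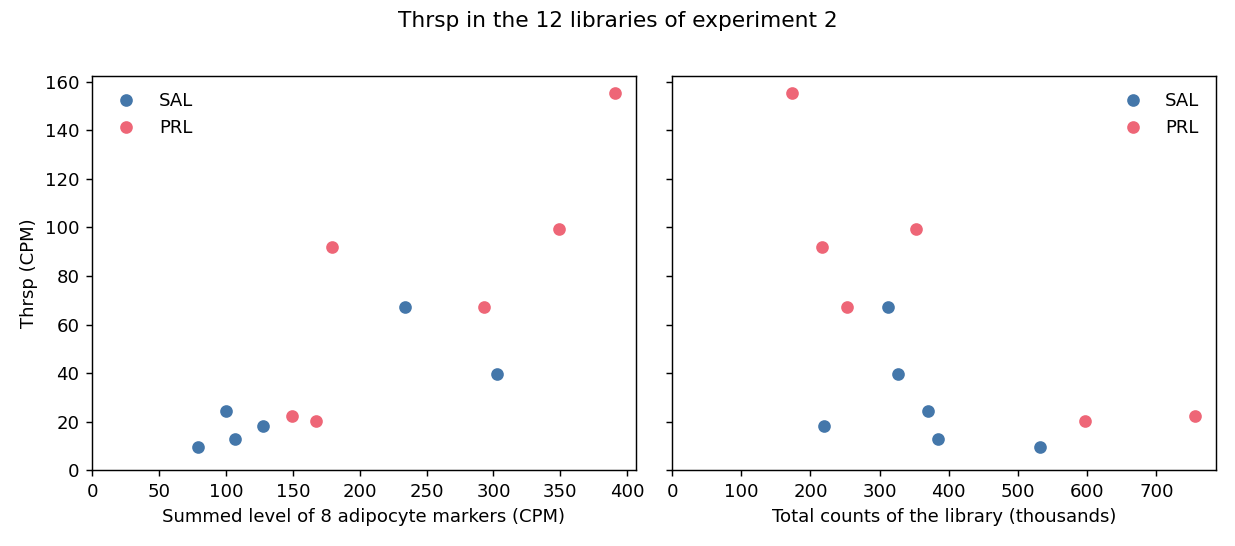
Thrsp level in CPM (vertical axis) in the 12 libraries of experiment 2 (SAL blue, PRL red), against the summed level of 8 adipocyte markers in CPM (left) and against the total counts of the library divided by 1000 (right). The library with the highest Thrsp, PRL replicate 5, had the highest marker sum (391 CPM) and the lowest total, and SAL replicate 4, with the lowest Thrsp, had the lowest sum (79.0 CPM). PRL replicate 4 had 92.0 CPM of Thrsp at a sum of 179 CPM.

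Other genes of hormone action were taken from a list of 64 genes in 8 role groups, of which 57 had a row in experiment 2 and 51 were tested. After adjustment 0 of 51 passed with edgeR and with DESeq2, beside 0% of all genes. At an unadjusted p under 0.05, edgeR called 3 of 51, 1 higher and 2 lower in PRL, beside 4.88% of all genes. Log2 fold changes were above 0 for 32 genes and below 0 for 19, with a median of 0.09 beside 0.03 for all genes. DESeq2 called 2 of 51 at an unadjusted p under 0.05, and the permutation test 3.

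**Figure D4:**
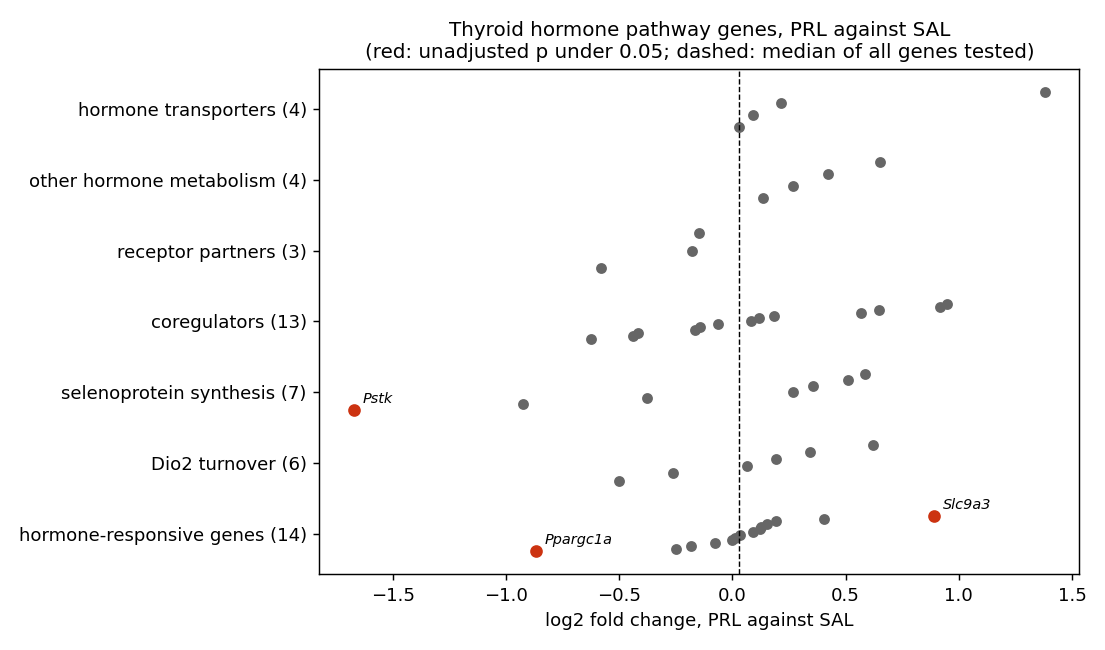
Log2 fold change in PRL against SAL (horizontal axis) of the 51 pathway genes tested, 1 point per gene, by role group with the number tested in brackets; points are spread vertically for sight only. Red points (Pstk, Ppargc1a and Slc9a3) had an unadjusted p under 0.05 and none passed after adjustment. All 4 transporters and all 4 genes of other hormone metabolism lie above 0 and all 3 receptor partners below it, and the dashed line marks the median of all genes (0.03).

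Transporters carry the hormones across the cell membrane. Of 10 listed, 7 had a row and 4 were tested, none of which passed even at an unadjusted p under 0.05. Slc3a2, the heavy chain shared by amino acid exchangers that also carry thyroid hormone, was at 35.5 ± 16.4 CPM in SAL and at 42.6 ± 6.93 CPM in PRL. Among enzymes that conjugate or deiodinate other forms of the hormone, edgeR called 0 of 4 tested at an unadjusted p under 0.05. The exact permutation test called 1 of these 4, beside 486 of all 10696 genes. The glucuronosyltransferase transcripts Ugt1a1 and Ugt1a9 had 199 ± 126 CPM and 185 ± 84.9 CPM in SAL and 218 ± 70.1 CPM and 227 ± 76.2 CPM in PRL. These 2 transcripts share most of their sequence and their counts may not be separate. Of the extracellular binding proteins only Alb had a row, with the 3 counts given above.

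The retinoid X receptors are the partners with which THRA and THRB bind DNA. Rxra was at 26.4 ± 18.7 CPM in SAL and at 24.3 ± 6.01 CPM in PRL. Rxrg had 10.98 ± 5.47 CPM and 9.78 ± 4.79 CPM, and 0 of 3 passed at an unadjusted p under 0.05. Among 13 coregulators tested the count was also 0 with edgeR, and it was 1 with the exact permutation test. Gps2, a subunit of the NCOR complex, had 217 ± 49.7 CPM and 242 ± 35.3 CPM, and Ncoa2, a coactivator of nuclear receptors, 113 ± 55.9 CPM and 96.8 ± 70.6 CPM. Of 6 genes that control DIO2 turnover by ubiquitin, 0 passed, and Marchf6, a ubiquitin ligase, had 35.8 ± 16.9 CPM and 36.4 ± 6.47 CPM, and Ube2j2, a ubiquitin-conjugating enzyme, 33.0 ± 16.0 CPM and 29.3 ± 9.74 CPM (SD, n = 6 each, SAL before PRL).

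Deiodinases carry selenocysteine, and 7 of 8 genes of selenium supply and selenocysteine synthesis were tested. Pstk, the kinase that prepares the selenocysteine tRNA, had 18 counts in SAL and 6 in PRL, at 8.82 ± 3.80 CPM and 1.99 ± 2.21 CPM, with a log2 fold change of -1.67 (adjusted p = 0.709 in edgeR, exact permutation p = 0.00866). Its groups overlapped between 3.20 and 4.60 CPM. Selenop, which encodes the selenium carrier selenoprotein P, was at 879 ± 413 CPM in SAL and at 1334 ± 703 CPM in PRL, with a log2 fold change of 0.51 (adjusted p = 0.998 in edgeR, exact permutation p = 0.208) and widely overlapping groups. Sephs2, which makes the selenium donor, had 25.6 ± 14.7 CPM and 35.9 ± 5.49 CPM.

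Of 16 genes listed as responsive to thyroid hormone in kidney, liver or other tissues, 14 were tested. Slc9a3, the sodium-proton exchanger of the proximal tubule, was at 10.4 ± 6.45 CPM in SAL and at 21.2 ± 10.8 CPM in PRL, with a log2 fold change of 0.89 (adjusted p = 0.998 in edgeR, exact permutation p = 0.0628). Ppargc1a, a coactivator that promotes mitochondrial biogenesis, had 22.3 ± 8.65 CPM and 13.1 ± 7.29 CPM, with a log2 fold change of -0.87 (adjusted p = 0.993 in edgeR, exact permutation p = 0.0628). Atp1b1, the beta subunit of the sodium pump, had 803 ± 90.2 CPM in SAL against 854 ± 152 CPM in PRL. Mid1ip1, the paralogue of Thrsp, and Fasn, the fatty acid synthase, were looked at after their values were seen, as genes of the same lipogenic response. Mid1ip1 was at 20.6 ± 5.45 CPM in SAL and at 27.0 ± 10.6 CPM in PRL, and Fasn 12.6 ± 6.62 CPM and 10.8 ± 9.69 CPM, neither past an unadjusted p of 0.05.

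In experiment 1, none of the 5 members tested differed between photoperiods. Ttr was at 615 to 730 CPM and Thra at 83.2 to 136 CPM in the group means, whereas Thrb, Crym and Ncor1 rested on 1 to 5 counts per group of 4 libraries. The 3 comparisons among LP, SP12wk and SP28wk share their groups, as does the comparison of LP with SP28wk against SP12wk, so that they are not independent of each other. With edgeR, 0 of 5 members passed after adjustment in any of the 4 comparisons, and 0 of 5 at an unadjusted p under 0.05. DESeq2 also called 0 of 5 both after and before adjustment, and the exact permutation test 0 of 5 before it. For all 5086 genes tested, the share called after adjustment was 0.0197% for SP12wk against LP, 0.138% for SP28wk against SP12wk, 0.216% for SP28wk against LP and 0.0393% for LP with SP28wk against SP12wk. At an unadjusted p under 0.05 the shares were 7.27%, 6.1%, 8.61% and 6.76% in the same order. A share near the background among 5 genes would be 0 or 1, so that these counts set the members apart in no direction.

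**Figure D5:**
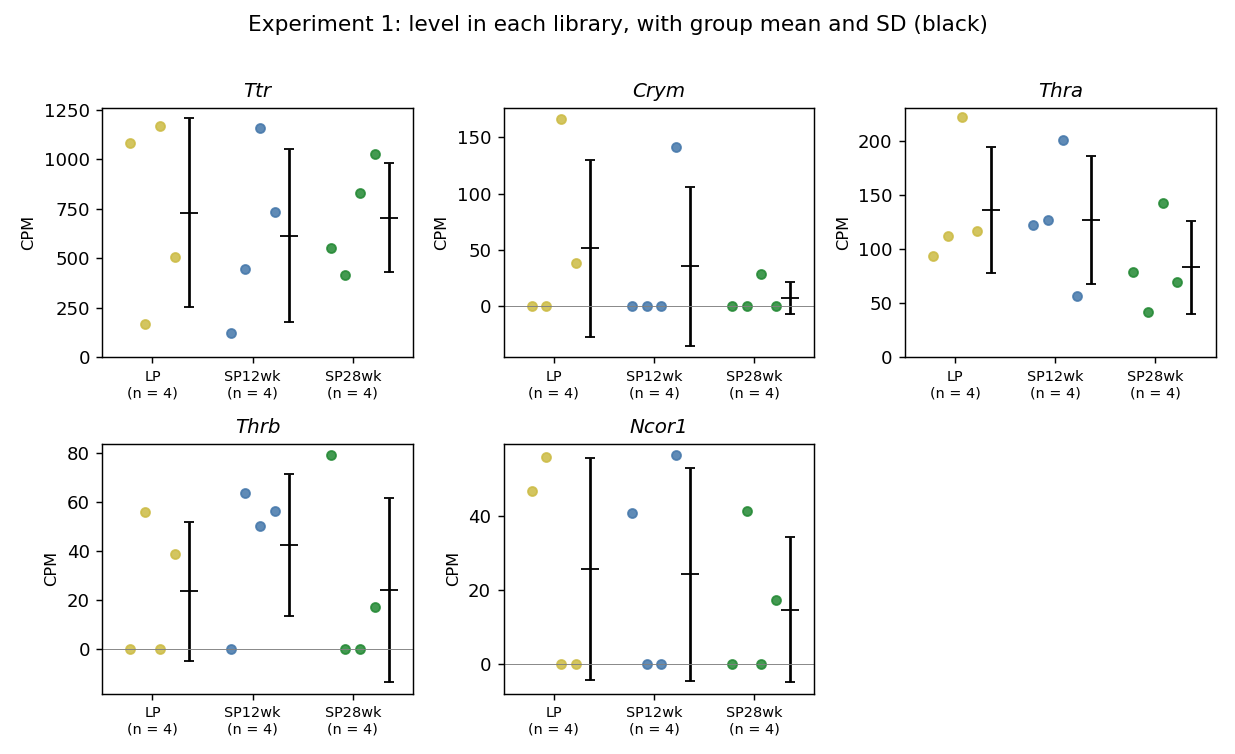
Level of the 5 genes with a row in experiment 1, in CPM (vertical axis, different scale in each panel), in the 4 libraries each of LP, SP12wk and SP28wk, in the order of their replicate number, with the group mean and SD in black; SD bars that pass below 0 come from groups with libraries at 0. Ttr and Thra had counts in 12 of 12 libraries with overlapping groups, and Thrb, Crym and Ncor1 were at 0 in 5, 8 and 6 of 12.

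Ttr had 231 counts in experiment 1. In LP its 4 libraries were at 1082, 168, 1165 and 505 CPM. In SP12wk they were at 123, 446, 1155 and 735 CPM, and in SP28wk at 553, 415, 828 and 1025 CPM. The lowest library of each group was at or below 415 CPM and the highest at or above 1025 CPM, and the 2 lowest values of all, in LP replicate 2 and SP12wk replicate 1, rested on 3 counts each. The order of the means was LP (730 ± 476 CPM), SP28wk (705 ± 274 CPM) and SP12wk (615 ± 438 CPM), and no neighbours in this order differed beyond their SD (n = 4 each). The log2 fold changes were -0.09 for SP12wk against LP (95% confidence interval -1.04 to 0.87), 0.41 for SP28wk against SP12wk (-0.51 to 1.34), 0.33 for SP28wk against LP (-0.59 to 1.25) and 0.25 for LP with SP28wk against SP12wk (-0.57 to 1.07), with adjusted p from 0.907 to 1 in edgeR. The sign for SP28wk against LP, which is opposite to that of the mean CPM, depended on the scaling, with -0.011 for total counts in place of TMM, the scaling factors of edgeR. These intervals leave room for changes of up to 2.53-fold.

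Thra had 34 counts, 11 in LP, 11 in SP12wk and 12 in SP28wk. LP libraries were at 94.1, 112, 222 and 117 CPM, SP12wk libraries at 123, 127, 201 and 56.5 CPM, and SP28wk libraries at 79.0, 41.5, 143 and 69.5 CPM. The SP28wk group held 3 of the 5 lowest values and overlapped both other groups. The order of the means was LP (136 ± 58.0 CPM), SP12wk (127 ± 59.0 CPM) and SP28wk (83.2 ± 42.8 CPM), and no neighbours in this order differed by more than the SD of the higher group. The log2 fold change of SP28wk against LP was -0.27 (95% confidence interval -1.70 to 1.16, adjusted p = 0.956 in edgeR), and that of SP12wk against LP was 0.03 (-1.46 to 1.51), opposite in sign to the means, and -0.16 with total counts in place of TMM.

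With 1 transcript per gene, the 3 remaining members were at the limit of detection. Thrb had 2 counts in LP, 4 in SP12wk and 3 in SP28wk, and was found in 7 of 12 libraries. Ncor1 had 2, 3 and 2 counts after rounding and was found in 6 of 12. Crym had 4 counts in LP (3 in replicate 3 and 1 in replicate 4), 5 in SP12wk (all in replicate 4) and 1 in SP28wk (replicate 3). The fitted log2 fold change of Crym was -1.87 for SP28wk against LP (adjusted p = 0.768 in edgeR, the lowest of the members in experiment 1) and -2.11 for SP28wk against SP12wk (adjusted p = 0.914 in edgeR). The latter rested on SP12wk replicate 4, and without it the log2 fold change was 1.40. Changes of these 3 genes with photoperiod were not detectable at this depth.

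Side by side, and without a test, Ttr was at 615 to 730 CPM in the males of experiment 1 and at 356 to 382 CPM in the females of experiment 2, and Thra at 83.2 to 136 CPM and at 15.9 to 17.9 CPM. Crym was at 7.14 to 51.3 CPM and at 35.4 to 38.8 CPM.

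Of the 64 pathway genes, 49 had a row in experiment 1 and 31 were tested, and 0 of 31 passed after adjustment in any of the 4 comparisons with edgeR or DESeq2. At an unadjusted p under 0.05, edgeR called 4 of 31 in SP12wk against LP, 2 of 31 in SP28wk against SP12wk, 4 of 31 in SP28wk against LP and 2 of 31 in LP with SP28wk against SP12wk, beside the shares of all genes given above. In the same order DESeq2 called 2, 2, 4 and 2, and the permutation test 0, 3, 2 and 2. Median log2 fold changes of the 31 genes were -0.48, 0.20, -0.10 and 0.14, beside 0.00, 0.16, 0.18 and 0.05 for all genes.

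Selenop came nearest to the threshold among the pathway genes. LP libraries were at 4233, 1795, 1498 and 2641 CPM, SP12wk libraries at 1512, 1849, 1155 and 1809 CPM, and SP28wk libraries at 7272, 3029, 3514 and 3317 CPM. All 4 SP28wk libraries were above all 4 SP12wk libraries, and LP overlapped both. The means were 1581 ± 321 CPM in SP12wk and 4283 ± 2003 CPM in SP28wk (SD, n = 4 each), with a log2 fold change of 1.57 (SE 0.47, adjusted p = 0.312 in edgeR) and an exact permutation p of 0.0286, the smallest that 4 against 4 libraries can give. For SP28wk against LP the log2 fold change was 0.99 (adjusted p = 0.538), and for LP with SP28wk against SP12wk it was 1.07 (adjusted p = 0.663).

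Atp1b1 libraries of LP were at 1552, 4655, 4994 and 2486 CPM and those of SP12wk at 1594, 1147, 1606 and 1441 CPM. The lowest LP library lay among the SP12wk libraries and the other 3 above them all. The means were 3422 ± 1670 CPM in LP and 1447 ± 214 CPM in SP12wk (log2 fold change -0.96, adjusted p = 0.615 in edgeR, exact permutation p = 0.0857).

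Other pathway genes with a low unadjusted p were mostly sparse, and their p-values here are from exact two-sided permutation tests of the mean CPM. Tbl1xr1, a subunit of the NCOR complex, had 2 counts in LP and 12 in SP12wk (exact p = 0.0571), and for LP with SP28wk against SP12wk it had a log2 fold change of -1.75 (exact p = 0.0141). Ep300, a histone acetyltransferase, had 3 counts in SP12wk and 19 in SP28wk (exact p = 0.0571, and 0.0444 for LP with SP28wk against SP12wk). Ugt1a1 had 0 counts in LP, 4 in SP12wk (exact p = 0.429) and 5 in SP28wk (exact p = 0.143), and for LP with SP28wk against SP12wk the exact p was 0.547. Gps2 had 87 counts in SP12wk and 63 in SP28wk, at 889 ± 212 and 467 ± 134 CPM (exact p = 0.0286). Mid1ip1 had 11 counts in LP and 4 in SP28wk (exact p = 0.0286). Ube2j2, named here after its value was seen, was the remaining gene with an unadjusted p under 0.05 in SP28wk against LP in edgeR (log2 fold change 2.95, exact permutation p = 0.143). In edgeR the adjusted p of these genes lay between 0.547 and 0.936.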

How the data were processed

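Kidney RNA of 24 hamsters was sequenced as nanopore cDNA, 12 libraries per flow cell. The methods name a direct cDNA kit and the labels a PCR-cDNA kit with the same catalogue numbers. The authors basecalled with Guppy, trimmed with Porechop, filtered with Filtlong, used Minimap2 to place reads on the mouse genome and, per mouse RefSeq transcript, deposited estimated counts (expected counts) without normalization. The submitters' processing notes also name Salmon, with no role given. Hamster reads that align poorly to mouse transcripts are lost, so that levels are best compared within a gene, and reads shared by transcripts can be listed on several.

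Here, each gene was represented by its transcript with the most counts in the experiment (ties to the first identifier), and CPM was that count divided by the sum over genes. Groups came from the sample labels. Rounded counts were tested by edgeR 4.0.16 (quasi-likelihood, TMM scaling) in R 4.3.3, 1 fit per experiment and no covariate. A gene was tested when 4 or more of 12 libraries (experiment 1) or 6 or more (experiment 2) had a count of it. Calls needed a p under 0.05 after Benjamini-Hochberg adjustment over all genes tested. The SE was the log2 fold change divided by the square root of F, and intervals used the t distribution of the fit. The code was tested on simulated data. Nothing in the sources states how many animals shared a cage or an extraction day. In edgeR the spread between animals is estimated with values pooled over genes. Its p-values and intervals therefore do not rest on the spread of each gene alone. For Atp1b1 in SP12wk against LP the unadjusted p was 0.0369 in edgeR and 0.0857 in the exact permutation test.

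Alternatives were DESeq2 1.42.0, sums over transcripts, total counts without TMM, no filter, a stricter filter (8 or 12 of 12 libraries), an exact permutation test (Python 3 with scipy), a replicate block and each library left out. The members, the pathway and marker lists and the tests were chosen with earlier results of these data known. Named were all members, the 2 pathway genes per role with the highest mean CPM in experiment 2, the pathway genes past the threshold or else the 2 of smallest p for each direction, and the 5 genes most like Ttr. Some pathway genes that the rule names are not reported here by name but are in the counts. No gene sequences are shown.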

Additional observations from a re-analysis of the deposited data

Results flagged for a closer look

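Crym in experiment 1 had a library apart from the rest of its group in SP12wk, where replicate 4 was at 141 CPM (5 counts) and the other 3 libraries were at 0, and in SP28wk, where replicate 3 was at 28.6 CPM (1 count) and the other 3 were at 0. In both groups the gap between this library and the next took up the whole range of the group. These were 2 of 29 groups of members looked at. A group with counts in only 1 library has such a gap by construction. The share of about 1 in 20 picked out by chance therefore does not apply to these groups.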

How the results depend on the processing

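Counts of called members were the same as in the report, 0, under 81 of 83 alternatives over the 5 comparisons, and counts of called pathway genes under 82 of 83, the permutation tests included. The exceptions were PRL against SAL with no filter (1 member, Thrsp) and with the replicate block (1 member, Thrsp), and SP28wk against LP with total counts (1 pathway gene). The block changed no other call of a member or pathway gene. The labels do not say whether libraries with the same number share anything else. Correlations of their deviations from the group means ran from -0.10 to 0.21 in experiment 1 and from -0.18 to 0.24 in experiment 2. A library correlated best with its own number in 7 of 24 cases, among the 4 libraries of another group, and in 3 of 12 cases, among the 6 of the other group. The count over all genes in PRL against SAL was 0 in the report, 92 with no filter (17 higher, 75 lower), 94 with the block (29 higher, 65 lower), 1 with sums over transcripts, and 0 to 50 with 1 library left out (28 without SAL replicate 6, 26 without PRL replicate 3 and 50 without PRL replicate 4). In experiment 1 the 1, 7, 11 and 2 genes called in the 4 comparisons became 0 with sums over transcripts, and with 1 library left out SP28wk against LP reached 52 (without LP replicate 4) and 27 (without SP28wk replicate 1), and SP12wk against LP 9 (without SP12wk replicate 1). The permutation test called 0 genes in each comparison after adjustment, a count that says nothing of stability: for 4 against 4 libraries its smallest exact p, 0.0286, cannot pass over 5086 genes unless most of them share it. Without TMM the median log2 fold change of all genes moved from 0.00 to -0.17 in SP12wk against LP and from 0.18 to -0.16 in SP28wk against LP.

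Of 732 log2 fold changes of single genes under an alternative, 39 changed sign, all of them of members that did not pass in either setting. In SP12wk against LP, Thra was -0.0045 with DESeq2 and -0.16 with total counts, and Crym -0.13 with DESeq2. In SP28wk against LP, Thrb was -0.14 and Ttr -0.011 with total counts, and with sums over transcripts Ncor1 was 4.99, and Thrb was 0.55 in SP28wk against SP12wk. With 1 library left out, SP12wk against LP ran from -0.24 to 0.30 for Thra, from -0.49 to 0.26 for Ttr, from -3.27 to 1.63 for Crym and from -0.32 to 1.01 for Ncor1. SP28wk against SP12wk ran from -3.50 to 1.40 for Crym and from -1.33 to 0.0083 for Ncor1. SP28wk against LP ran from -0.81 to 0.59 for Thrb, from -0.076 to 0.61 for Ttr and from -0.83 to 0.16 for Ncor1. LP with SP28wk against SP12wk ran from -0.43 to 0.10 for Thra, from -0.12 to 0.63 for Ttr, from -1.90 to 2.34 for Crym and from -1.001 to 0.16 for Ncor1. PRL against SAL ran from -0.14 to 0.30 for Thra, from -0.32 to 0.023 for Ttr, from -0.10 to 0.18 for Crym and from -0.49 to 0.0102 for Ncor1. The cause was not tested. Depth limits Dio1, Thrb and Ncor1 to 10 counts per library or fewer in experiment 2, where Thra had 2 to 20. In experiment 1 it limits all members but Ttr to a few counts per library.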
